A study of Arabidopsis thaliana with 8 samples.

Results

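RCD1 (RADICAL-INDUCED CELL DEATH1) and the SRO genes (SIMILAR TO RCD ONE) form a small plant protein family with 6 members in Arabidopsis thaliana: RCD1 (AT1G32230), SRO1 (AT2G35510), SRO2 (AT1G23550), SRO3 (AT1G70440), SRO4 (AT3G47720) and SRO5 (AT5G62520). The members were found through the sequence accession that the array files give each probe. That match gave 11 of the 43603 non-control probes. Of these, 8 passed the filter on dim signals, and 4 genes (RCD1, SRO1, SRO2 and SRO5) are among the 22668 genes tested. The family was chosen by the measured values of SRO5, which depart far from additive effects of the mutations. The values of SRO5 are therefore given as a description, with no test, and the same holds for the interaction of every member.

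Proteins of this family share a region related to the catalytic part of poly(ADP-ribose) polymerases and, at the end of the protein, an RST domain that binds transcription factors. RCD1 and SRO1 also carry a WWE domain, which the shorter proteins SRO2 to SRO5 lack. RCD1 is a nuclear hub protein known for its binding of factors such as DREB2A and ANAC013, and for holding back stress genes that answer to signals from mitochondria. SRO5 lies tail to tail with P5CDH, the gene of a mitochondrial enzyme of proline breakdown, and the ends of both transcripts overlap. This pair is known for small interfering RNAs that form from the overlap under salt stress and lower the mRNA of P5CDH.

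Expression was measured in whole seedlings at 12 days of age, all in the Col-0 ecotype, on 8 one-colour microarrays with 2 per genotype. The study used wild type (WT), the single mutants as1-1 and tfl2-1, and the double mutant as1-1 tfl2-1. Each mutation is represented by a single allele. AS1 encodes a MYB factor that represses KNOX genes in leaves, and TFL2, or LHP1, is a chromodomain protein that works with Polycomb repression. All seedlings were raised on MS medium at 22 °C and about 100 µE m-2 s-1, in days of 16 h light and 8 h dark.

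On each array, 67.1% to 72.5% of the probes were above background by the scanner program's flag. Per the file headers, WT and as1-1 shared 1 slide, and tfl2-1 and the double mutant shared the other. The comparisons of as1-1 with WT and of the double mutant with tfl2-1 are therefore within a slide. In the other comparisons the slide and the TFL2 genotype cannot be told apart. The 8 spike-in control probes measure RNA added in known amounts. On the log2 scale they lay at -0.24 to -0.06 in tfl2-1 and at -0.32 to -0.21 in the double mutant against WT. Within slides they lay at -0.17 to -0.08 in as1-1 against WT and at -0.22 to -0.08 in the double mutant against tfl2-1. These sizes are like those of the differences of RCD1, SRO1 and SRO2 given here. The part of the spike-in shifts in those and other small differences was not tested. AS1 mRNA was 0.49 lower on the log2 scale in as1-1 than in WT (adjusted p = 0.00394), and TFL2 mRNA was 1.08 lower in tfl2-1 (adjusted p = 4.3e-05, limma). In the double mutant TFL2 mRNA was 0.73 lower than in WT (adjusted p = 0.000129) but 0.35 higher than in tfl2-1 (adjusted p = 0.00773, limma). AS1 mRNA in the double mutant differed from WT by 0.02 (adjusted p = 0.771). It was 0.34 higher than in tfl2-1 (adjusted p = 0.00952) and 0.52 higher than in as1-1 (adjusted p = 0.000639, limma). In tfl2-1, AS1 mRNA was 0.32 lower than in WT (adjusted p = 0.00629, limma). Where the AS1 and TFL2 probes lie relative to the mutations is not known. All 5 leaf photosynthesis markers were well above background on every array. Of 5 root markers, SHR and SCR were above background on 8 arrays, CASP1 on 7 and COBL9 on 3, while PIN2 was not above background on any, so the defining markers of root tissue were only partly detected in these whole seedlings.

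SRO5 mRNA was high in as1-1 and low in the other 3 genotypes. Its single probe read an intensity of 76.7 and 81.6 on the WT arrays, 2278 and 2237 on the as1-1 arrays, 52.4 and 57.9 on the tfl2-1 arrays, and 34.4 and 37.6 on the double mutant arrays. All 8 values were well above background, and no genotype overlapped another. On the log2 scale relative to the 75th percentile of each array, the means were 0.72 ± 0.04 in as1-1, -3.93 ± 0.01 in WT, -4.70 ± 0.06 in tfl2-1 and -5.32 ± 0.19 in the double mutant (SD, n = 2 each). In RNA of whole seedlings, more cells that express a gene and more RNA per cell cannot be told apart.

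SRO5 was 25.0-fold higher in as1-1 than in WT (log2 difference 4.64, SE 0.091), which placed it 7th from the highest of 22668 genes. In tfl2-1 plants the as1-1 mutation went with a lower level: the double mutant was 1.54-fold below tfl2-1 (-0.62). Both of these differences lie within a slide. tfl2-1 alone was 1.71-fold below WT (-0.77) and the double mutant was 2.63-fold below WT (-1.39). The widest gap was between the single and the double mutant, where SRO5 was 65.7-fold lower in as1-1 tfl2-1 than in as1-1 (-6.04), 9th from the lowest of all genes. With normexp background correction all 5 directions were the same. The sizes were then 14.99-fold for as1-1 against WT and 1.21-fold for the double mutant against tfl2-1. They were 1.39-fold for tfl2-1 against WT, 1.69-fold for the double mutant against WT and 25.3-fold for the double mutant against as1-1.

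The interaction is the difference that as1-1 makes in tfl2-1 plants minus the difference it makes in plants without the tfl2-1 mutation. For SRO5 it was -5.27 (SE 0.129). It was the lowest value among the 20816 genes above background on all 8 arrays. Among all genes tested, 6 had a lower one, each of them dim on at least 3 arrays, and CBF2 (-6.24) and DDF1 (-6.25), genes of cold-response transcription factors, were among these. The next gene measured on all arrays was CBF1, at -4.95.

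**Figure D1:**
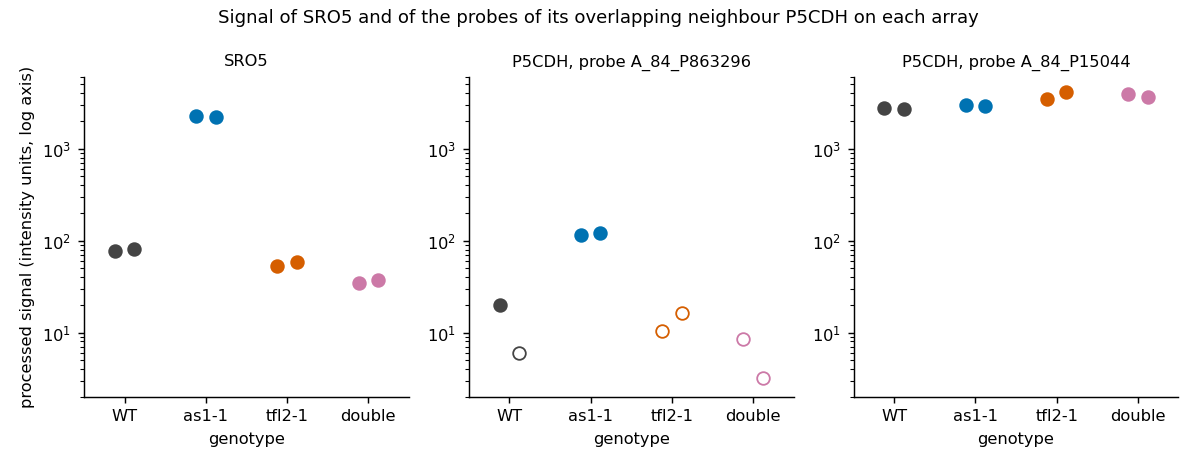
Processed signal (intensity units, log axis) of the SRO5 probe and of the 2 P5CDH probes on each of the 8 arrays, by genotype; each point is 1 array, and open points were not well above background. The as1-1 arrays stand apart for SRO5 (2278 and 2237) and for the dim P5CDH probe A_84_P863296, but not for the bright P5CDH probe A_84_P15044.

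P5CDH (AT5G62530, named ALDH12A1 in the RefSeq table) is the neighbour whose annotated span overlaps SRO5, and its 2 probes disagreed. The brighter probe, which represents the gene here, read 2750 and 2733 in WT, 2966 and 2883 in as1-1, 3483 and 4182 in tfl2-1, and 3968 and 3671 in the double mutant. Relative to the array's 75th percentile, the as1-1 values lay just below those of WT, and the values of tfl2-1 and the double mutant lay above both. The as1-1 difference was -0.10 against WT (adjusted p = 0.28, 95% interval -0.24 to 0.04), and -0.01 between the double mutant and tfl2-1 (adjusted p = 0.953, limma). P5CDH rose by 0.23 in tfl2-1 and by 0.22 in the double mutant against WT (adjusted p = 0.0162 and 0.0145), and was 0.32 higher in the double mutant than in as1-1 (adjusted p = 0.0035). The P5CDH call in tfl2-1 was lost without WT replicate 2 or either tfl2-1 array (adjusted p = 0.0504 to 0.0757), and that in the double mutant without WT replicate 2 or double mutant replicate 2 (0.0672 and 0.0655).

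The second P5CDH probe, A_84_P863296, carries the same accession but, like SRO5, was highest on the as1-1 arrays. It read 116 and 120 on the as1-1 arrays, where both values were well above background. On the WT arrays it read 19.7 and 6.02, and only the first was above background. None of the tfl2-1 values (10.3 and 16.3) or double mutant values (8.45 and 3.19) was. The probe passed the filter on dim signals only through its as1-1 arrays, so its differences from as1-1 are given without a test. In a fit over all kept probes it was 3.25 higher in as1-1 than in WT. That size is not settled, because the WT mean has only 1 of 2 arrays above background. The probe was at least 8.21-fold lower in the double mutant than in as1-1, against a floor of the lowest signal above background on each array. The files used here give neither the strand nor the place of this probe in the transcript, so signal from P5CDH and from the overlapping SRO5 transcript cannot be told apart.

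The other genes beside SRO5 in the gene table did not share its rise. EB1B, a microtubule end-binding protein gene, differed by -0.15 between as1-1 and WT (adjusted p = 0.142), and UBC3, a ubiquitin-conjugating enzyme gene, by 0.09. AT5G62510 was not above background on any array. In the double mutant against WT, EB1B fell by 0.31 (adjusted p = 0.00464) and UBC3 fell by 0.23 (adjusted p = 0.0059, limma).

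None of the 3 other members tested (RCD1, SRO1 and SRO2) changed in as1-1 against WT, a comparison in which 19.2% of all genes passed the threshold (7.09% rose and 12.1% fell). RCD1 and SRO1 rose in tfl2-1 and in the double mutant, whereas SRO2 fell in the double mutant alone. Against WT, 54.7% of all genes passed in tfl2-1 (26.2% rose and 28.4% fell), and 63.7% passed in the double mutant (30.8% rose and 32.9% fell). A change in these comparisons was thus common, and the members' counts lie near that background.

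RCD1, the hub protein of the family, had scaled log2 signals of 2.61 and 2.65 in WT, 2.67 and 2.61 in as1-1, 2.94 and 2.89 in tfl2-1, and 2.971 and 3.002 in the double mutant. WT and as1-1 overlapped, and both lay below tfl2-1 and the double mutant. RCD1 rose 1.22-fold in tfl2-1 (0.29, SE 0.048, adjusted p = 0.00315) and 1.28-fold in the double mutant against WT (0.36, adjusted p = 0.000947). It was 1.27-fold higher in the double mutant than in as1-1 (0.35, adjusted p = 0.00113), where 61.5% of all genes passed (32.5% higher and 29% lower). Within slides the as1-1 mutation gave 0.01 against WT (adjusted p = 0.924, 95% interval -0.11 to 0.12) and 0.07 between the double mutant and tfl2-1 (adjusted p = 0.32, interval -0.05 to 0.18). The latter difference passed the threshold under 3 other scalings, at 0.16 to 0.17. These 3 are not independent. The normexp values were also quantile scaled, and the authors' table gave nearly the value of quantile scaling.

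The 4 RCD1 probes did not all behave alike. A_84_P812252 and A_84_P856794 moved further than the probe used, by 0.61 and 0.80 in tfl2-1 and by 0.76 and 0.87 in the double mutant against WT, and all 4 of these differences passed the threshold in the fit over probes. A_84_P851998 passed in no comparison. It differed by 0.01 in tfl2-1, by -0.13 in the double mutant and by -0.46 in as1-1 against WT (adjusted p = 0.957, 0.493 and 0.0959), and its WT arrays were far apart (0.10 and -0.35 on the scaled log2 scale).

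SRO1, the closest relative of RCD1 and its partner in development and stress tolerance, read 1.12 and 1.13 in WT, 1.09 and 1.17 in as1-1, 1.30 and 1.28 in tfl2-1, and 1.32 and 1.30 in the double mutant. The order of the genotypes was that of RCD1, with smaller steps. SRO1 rose 1.12-fold in tfl2-1 (0.16, SE 0.046, adjusted p = 0.0258) and 1.13-fold in the double mutant (0.18, adjusted p = 0.0142), and was 0.18 higher in the double mutant than in as1-1 (adjusted p = 0.0149). The as1-1 mutation gave 0.00 against WT (adjusted p = 0.998, 95% interval -0.11 to 0.11) and 0.02 in tfl2-1 plants (adjusted p = 0.778).

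These SRO1 calls were fragile. The tfl2-1 call was lost on leaving out either array of WT or of tfl2-1 (adjusted p of up to 0.106). The double mutant call against WT was lost without WT replicate 1 or double mutant replicate 1 (0.055 and 0.0638), and that against as1-1 without as1-1 replicate 1 or either double mutant array (0.0512 to 0.083). The second SRO1 probe, A_84_P241235, gave -0.00 in tfl2-1 and 0.04 in the double mutant against WT (adjusted p = 0.989 and 0.603), and 0.25 in the double mutant against as1-1 (adjusted p = 0.0188). In as1-1 against WT this probe gave -0.21 (adjusted p = 0.0837, limma fit over probes). That value lies outside the interval of the probe used. The difference between the probes was not tested, so the as1-1 difference of SRO1 is not settled.

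**Figure D2:**
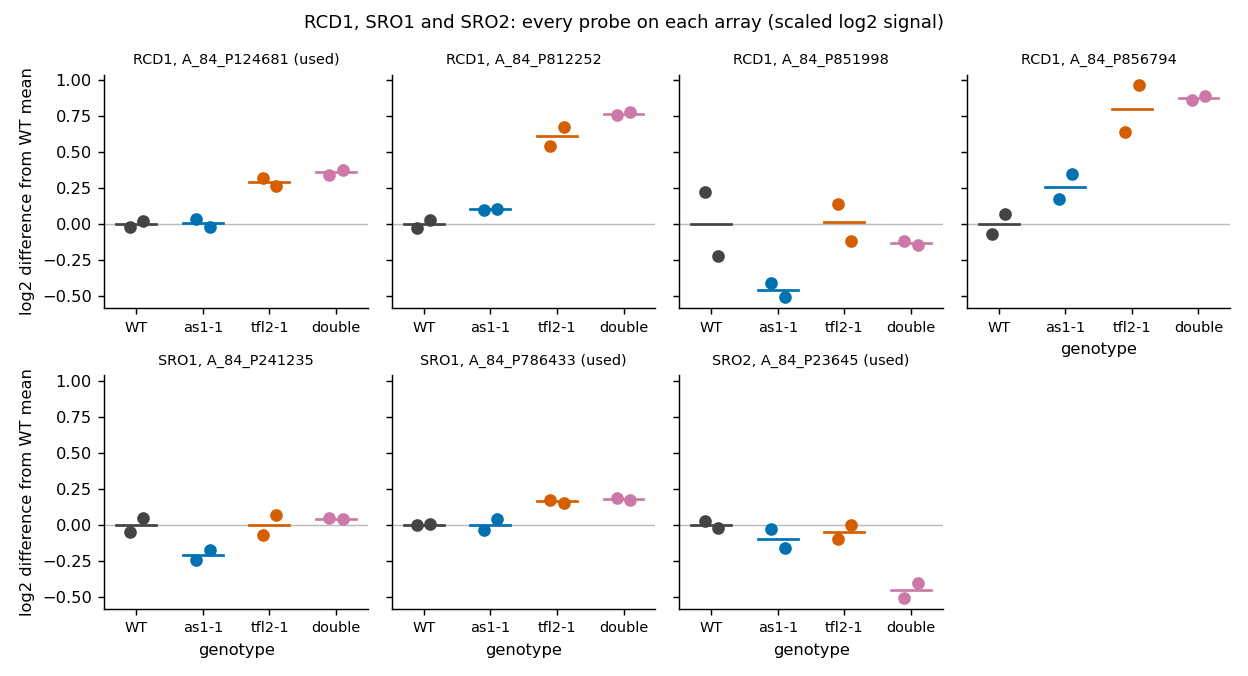
Scaled log2 signal of every kept probe of RCD1, SRO1 and SRO2 on each array, as the difference from the probe's WT mean; points are arrays, bars are means of 2 arrays, and "used" marks the probe that represents the gene. Of the RCD1 probes, 3 of 4 lie highest in tfl2-1 and the double mutant, and the SRO2 probe is lowest on both double mutant arrays.

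SRO2, a short member without the WWE domain, was low only where both mutations met. Its scaled log2 signals were -2.41 and -2.46 in WT, -2.47 and -2.60 in as1-1, -2.54 and -2.44 in tfl2-1, and -2.94 and -2.84 in the double mutant. The tfl2-1 values overlapped those of WT and of as1-1, the as1-1 values lay just below those of WT, and both double mutant arrays lay below all others. SRO2 fell 1.37-fold in the double mutant against WT (-0.46, SE 0.070, adjusted p = 0.00175), 1.28-fold against as1-1 (-0.36, adjusted p = 0.00518) and 1.32-fold against tfl2-1 (-0.40, adjusted p = 0.00798). The last comparison lies within a slide, and 31.5% of all genes passed in it, with 18% lower. Neither as1-1 (-0.10, adjusted p = 0.37, 95% interval -0.27 to 0.07) nor tfl2-1 (-0.05, adjusted p = 0.554, interval -0.22 to 0.12) passed the threshold against WT. The interaction of SRO2 was -0.30, and those of RCD1 and SRO1 were 0.06 and 0.02.

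SRO3 and SRO4 were not well above background on any array. The SRO3 probe read 2.24 to 16.5 and the 2 SRO4 probes read 2.04 to 5.35, while the lowest signal above background was 9.88 to 22.9 depending on the array. No difference is given for them.

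**Figure D3:**
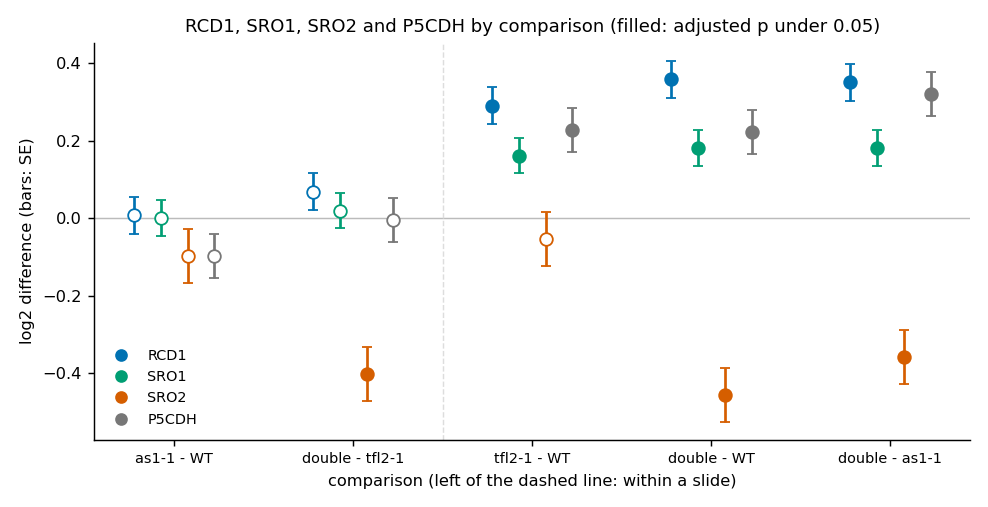
Log2 differences of RCD1, SRO1, SRO2 and P5CDH in the 5 comparisons between genotypes, with bars of 1 SE of the linear model; filled points passed an adjusted p of 0.05. To the left of the dashed line, where the arrays compared share a slide, only SRO2 in the double mutant against tfl2-1 (-0.40) is filled.

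The 8 genes whose signals followed SRO5 most closely over the 8 arrays had a Pearson correlation of 0.997 to 0.998 with it. They were CAF1b (AT5G22250) and CAF1a (AT3G44260), which encode deadenylases that shorten mRNA tails, ACS6 (AT4G11280), an ethylene synthesis enzyme gene, DIC2 (AT4G24570), a mitochondrial dicarboxylate carrier gene, and AT1G72900, AT1G58420, AT3G02840 and AT2G35290. All of them had their highest values on both as1-1 arrays. CAF1a was 2.28 higher in as1-1 than in WT and 0.21 lower in the double mutant than in tfl2-1. For ACS6 these differences were 2.80 and -0.23, and for CAF1b 1.25 and -0.21. None reached the 4.64 of SRO5.

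Over the 6 arrays other than those of as1-1, the same 8 genes had correlations of 0.944 to 0.980 with SRO5, and the 8 genes most like it there were 8 others. With normexp background correction, 5 of the 8 were shared. The points of these correlations share the arrays and their scaling.

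**Figure D4:**
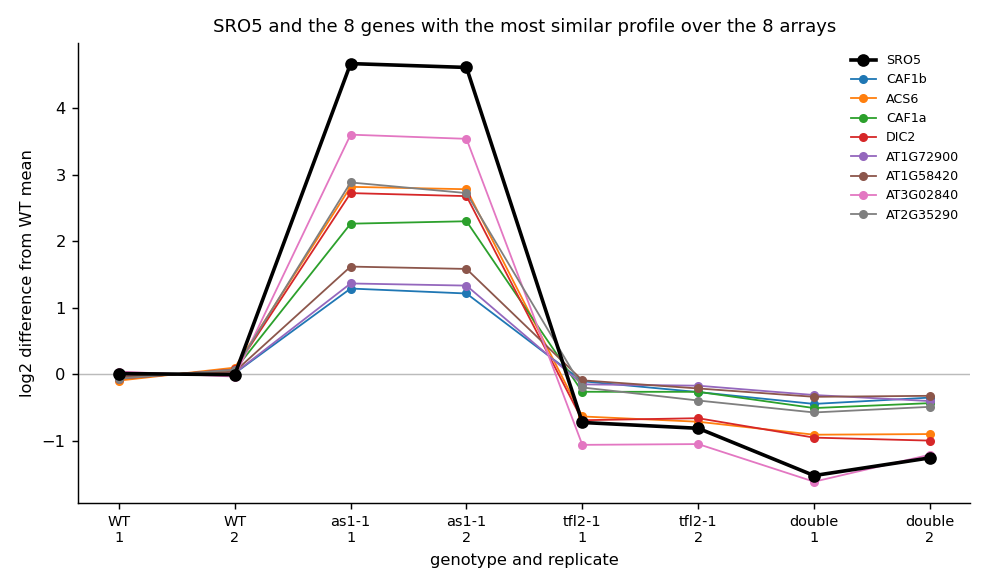
Scaled log2 signal of SRO5 and of the 8 genes most correlated with it over the 8 arrays, as the difference from each gene's WT mean; each point is 1 array. All 9 lines peak on the as1-1 arrays, SRO5 at the top, and lie below 0 on the tfl2-1 and double mutant arrays.

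Genes that respond within minutes to touch, cold and other stress moved with SRO5. Of 17 listed, 16 were tested, and all 16 lay higher in as1-1 than in WT. In as1-1, 14 rose and none fell (median 1.95, against -0.04 over all genes), where 7.09% of all genes rose. CBF2 was not above background on any tfl2-1 or double mutant array, and DDF1 on none of the double mutant, which gives only a bound. In the double mutant against tfl2-1, all 15 genes other than CBF2 lay lower, and 13 of them fell, where 18% of all genes fell (median -0.73 over these 15 with DDF1 at its bound, against -0.00 over all genes). The mean scaled log2 signal of the 16 genes was -1.22 to -1.17 on the WT arrays, 0.92 to 0.93 on the as1-1 arrays, -1.67 to -1.63 in tfl2-1 and -2.42 to -2.38 in the double mutant. The tfl2-1 and double mutant means take in values of CBF2, DDF1 and CBF3 that were not above background, so these means are not fully measured levels. This list was chosen with earlier results of these data known, so its counts and the p-values of its genes are not independent support. The part of these genes in the SRO5 result was not tested.

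Within this group, CBF1, a regulator of cold-response genes, was 16.4-fold higher in as1-1 than in WT (4.03, adjusted p = 6.34e-06) and 0.92 lower in the double mutant than in tfl2-1 (adjusted p = 0.000723). CBF2 and DDF1, related factors, were 29.2-fold and 34.2-fold higher in as1-1 (adjusted p = 1.67e-05 and 2.19e-05). Neither was above background in the double mutant, where they were at least 56.4-fold and 159.6-fold lower than in as1-1. ZAT10, a zinc finger repressor of stress genes, rose by 2.60 in as1-1 and fell by 0.90 in the double mutant against tfl2-1 (adjusted p = 6.34e-06 and 0.000175, limma).

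**Figure D5:**
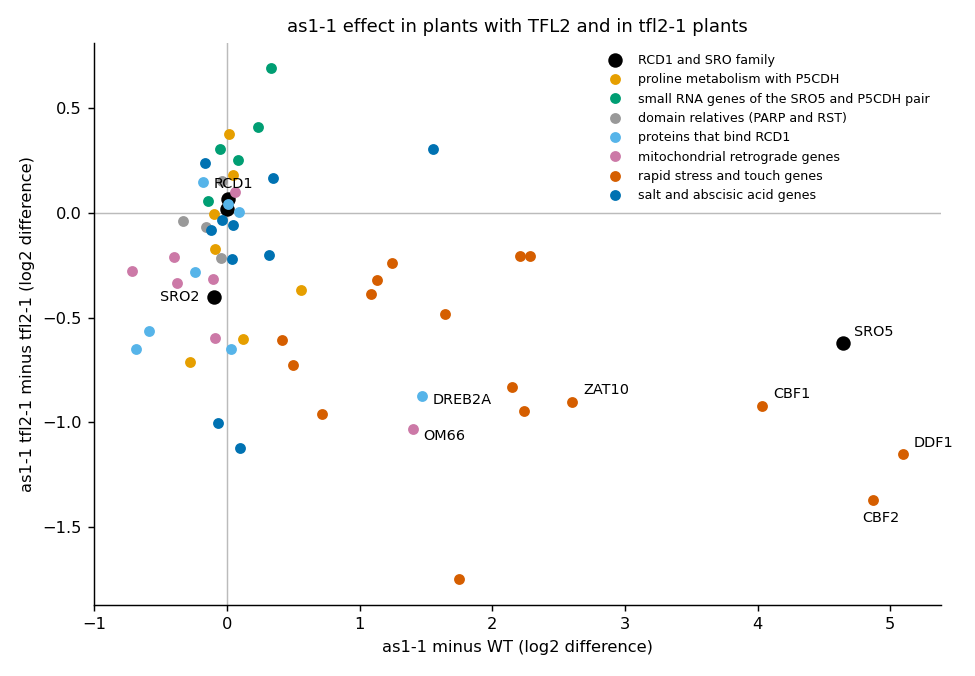
Log2 difference that as1-1 makes in plants without the tfl2-1 mutation (as1-1 minus WT, horizontal axis) and in tfl2-1 plants (double mutant minus tfl2-1, vertical axis), each within a slide, for the family and the 7 other gene lists; each point is 1 gene. SRO5 (4.64 and -0.62) lies with CBF1, CBF2, DDF1 and ZAT10 at the lower right, where the vertical place of CBF2 carries no measured size and that of DDF1 is a fitted value rather than its bound, while RCD1, SRO1 and SRO2 lie near 0 on the horizontal axis.

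Of 8 genes for proteins known to bind RCD1, 1 rose and 4 fell in as1-1 against WT, where 7.09% of all genes rose and 12.1% fell, and with normexp background correction 2 fell there. In the double mutant against tfl2-1 none rose and 5 fell (median -0.42), where 18% of all genes fell. DREB2A, a drought and heat factor, was the one that rose, by 1.47 in as1-1 (adjusted p = 0.000141), and it fell by 0.88 in the double mutant against tfl2-1 (adjusted p = 0.00066). DREB2C, its relative, fell by 0.68 and 0.65 in these comparisons, and BBX24, a B-box factor of light signalling, by 0.59 and 0.57, although neither BBX24 call held for the mean over its probes. ANAC046, a NAC factor of senescence, rose by 0.99 in tfl2-1 against WT and was 0.65 lower in the double mutant than in tfl2-1 (adjusted p = 1.93e-05 and 0.000333).

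Of 7 genes of the mitochondrial stress response that RCD1 is known to hold back, 1 rose and 3 fell in as1-1 against WT (7.09% and 12.1% of all genes), and 5 fell in the double mutant against tfl2-1 (18% of all genes), with a median of -0.31. OM66, an outer mitochondrial membrane protein gene, rose by 1.40 in as1-1 and fell by 1.03 in the double mutant against tfl2-1 (adjusted p = 4.41e-05 and 0.000131). UGT74E2, a glucosyltransferase gene, fell by 0.71 in as1-1, and UPOX, which encodes a small mitochondrial protein, by 0.40. The UPOX call was lost in 7 of the 8 fits that left out 1 array (adjusted p of up to 0.142). SOT12, a sulfotransferase gene, fell by 0.60 in the double mutant against tfl2-1 (adjusted p = 0.00516). The list held genes that went with SRO5 and genes that went against it.

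Of the 7 proline genes, 6 rose and none fell in tfl2-1 against WT (median 0.35, against -0.01 over all genes), where 26.2% of all genes rose. In as1-1, 1 rose and 1 fell, where 7.09% of all genes rose and 12.1% fell. PRODH1, which starts proline breakdown, rose by 1.63 in tfl2-1 and by 0.56 in as1-1 (adjusted p = 1.74e-05 and 0.00407). PRODH2, its relative, rose by 0.88 in tfl2-1 and fell by 0.28 in as1-1 (adjusted p = 0.000147 and 0.0382), the latter a call that was lost on leaving out any 1 of the 8 arrays (adjusted p = 0.0555 to 0.163). P5CS1, which starts proline synthesis, rose by 0.35 in tfl2-1 but fell by 0.60 in the double mutant against tfl2-1 (adjusted p = 0.00379 and 0.00119). P5CR, the next enzyme of synthesis, went the other way there, at 0.38 higher (adjusted p = 0.00435, limma).

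The 5 genes needed for the small RNAs of the SRO5 and P5CDH pair changed mostly in the double mutant. There 4 rose against WT (median 0.44), where 30.8% of all genes rose, and the same 4 genes rose against tfl2-1 (median 0.30), where 13.5% of all genes rose. They were NRPD1A, the large subunit gene of RNA polymerase IV (0.69 above tfl2-1, adjusted p = 0.00178), SGS3 (0.41), DCL2 (0.30) and DCL1 (0.25). The DCL1 call against tfl2-1 was lost in 5 of the 8 fits that left out 1 array (adjusted p of up to 0.137), and that of DCL2 in 1 (0.0562). In as1-1, where SRO5 was high, only NRPD1A of the 5 rose (0.33, adjusted p = 0.0336, limma), against 7.09% of all genes. That call was lost in 5 of the 8 fits that left out 1 array. RDR6 passed in no comparison with the scaling used here. In tfl2-1 against WT none of the 5 passed, where 28.4% of all genes fell. With quantile and with normexp scaling 1 of the 5 fell there, and with normexp 2 rose in as1-1.

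Among 10 genes of salt and abscisic acid responses, 2 rose and none fell in as1-1 against WT (7.09% and 12.1% of all genes). One was SOS3, a calcium sensor gene of salt tolerance (0.31, adjusted p = 0.0424), whose call was lost on leaving out 1 array in 6 of 8 fits (adjusted p of up to 0.173). The other was RD29B, which was not above background on either WT array and on only 1 as1-1 array, so that no fold is given. RD29A and NCED3, an abscisic acid synthesis gene, fell by 1.01 and 1.13 in the double mutant against tfl2-1 (adjusted p = 0.00535 and 0.000856). Of the 4 measured relatives by domain, TAF4B, a subunit gene of transcription factor TFIID, fell by 0.33 in as1-1 (adjusted p = 0.0339), and its relative TAF4 fell by 0.21 in the double mutant against tfl2-1 (adjusted p = 0.0471, limma). Both calls were lost with quantile and with normexp scaling, and on leaving out 1 array in 5 of 8 fits for TAF4B and in 6 for TAF4 (adjusted p of up to 0.131 and 0.187).

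Leaf photosynthesis markers also fell in tfl2-1 and the double mutant. None rose, and 4 of 5 fell in tfl2-1 and 5 of 5 in the double mutant against WT. In the double mutant against tfl2-1, 3 of 5 fell. Of all genes, 28.4%, 32.9% and 18% fell in these comparisons. With quantile and with normexp scaling, 3 of 5 fell in tfl2-1 and 3 of 5 in the double mutant against WT. Against tfl2-1, 2 fell with quantile scaling and 3 with normexp. In as1-1 against WT 1 of the markers fell (12.1% of all genes), and none did under either scaling. Their mean scaled log2 signal was 7.49 to 7.57 in WT, 7.39 to 7.40 in as1-1, 6.98 to 7.07 in tfl2-1 and 6.58 to 6.65 in the double mutant. Of the 4 root markers tested, none rose and CASP1 fell in tfl2-1, where 26.2% of all genes rose and 28.4% fell. In the double mutant 2 root markers rose against WT and 3 against tfl2-1 (30.8% and 13.5% of all genes). Their mean was -2.84 to -2.61 in WT, -2.36 to -2.26 in as1-1, -3.28 to -2.53 in tfl2-1 and -2.89 to -2.38 in the double mutant. These root marker means take in values of COBL9 and CASP1 that were not above background. The part of either marker group in the results for RCD1, SRO1 and SRO2 was not tested.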

How the data were processed

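Per the file headers, the deposited scanner files hold an intensity per spot, background-subtracted and detrended by the authors with Agilent Feature Extraction (version 10.7 per the submitters' processing notes). The authors also deposited a table of log2 values per probe. Its making is not given in the sources used here, its 8 columns all have a median of 7.68, and it served as an alternative.

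Control spots and 67 outlier spots were left out, and log2 signals were set to 0 at the 75th percentile of each array. A probe was kept when well above background on both arrays of at least 1 genotype (30467 probes). Accessions were matched to the RefSeq gene table of TAIR10.1, which named 34285 of 43603 probes. The headers name an older build, so no coordinates are given. A gene is its kept probe with the highest mean. All 8 arrays entered a linear model in limma 3.58.1 under R 4.3.3 (with version 1.17.8 of data.table), and the residual and prior degrees of freedom were 4 and 2.06. Adjusted p-values are limma's moderated test, two-sided, Benjamini-Hochberg over 22668 genes, with a threshold of 0.05. Intervals are 95% from the same model. "Rose", "fell" and "passed" refer to that threshold. A probe fit ran over the 30467 kept probes. The method was tested on simulated data.

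The labels do not say whether replicates are separate cultures, so p-values measure the spread between these samples only, which may be technical. No spot was saturated (0 on each array), and the number of arrays limits the precision. The members and gene lists were chosen with earlier results of these data known. Genes named are the 6 members with all their probes, the genes next to SRO5, AS1 and TFL2, up to 4 genes of each list with the largest called difference within a slide, and the 8 genes with the highest correlation with SRO5. Alternatives were quantile scaling, normexp background correction followed by quantile scaling, and the authors' table. Others were different filters and probes, the fit within a slide, a replicate block and leaving out each array.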

Additional observations from a re-analysis of the deposited data

Results flagged for a closer look

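In 18 genes named above, every as1-1 array lay on one side of both WT arrays while every double mutant array lay on the other side of both tfl2-1 arrays. The interaction, the second difference minus the first, is given for each, and the difference between the pairs of genotypes was not tested. It was -5.27 for SRO5, for which the family was chosen. Among the stress genes it was -4.95 for CBF1 and -3.50 for ZAT10. It was -2.43 for OM66, -2.35 for DREB2A and -0.68 for ANAC046. Of the proline genes, PRODH1 had -0.93 and P5CS1 -0.72. Among the genes most like SRO5 it was -3.04 for AT2G35290, -3.03 for ACS6, -3.001 for DIC2, -2.49 for CAF1a, -1.78 for AT1G58420, -1.54 for AT1G72900 and -1.46 for CAF1b; these were named for a profile like that of SRO5. SOS3 had -0.52 and UBC3, a gene beside SRO5, had -0.34. AS1 went the other way, at 0.83: its mRNA was lower in as1-1 than in WT and higher in the double mutant than in tfl2-1. The rule for these 18 genes asks only for the order of the arrays. In as1-1 against WT, ANAC046 (0.03, adjusted p = 0.654), P5CS1 (0.12, adjusted p = 0.229) and UBC3 (0.09, adjusted p = 0.229, limma) did not pass the threshold. SOS3 did not pass in the double mutant against tfl2-1 (-0.20, adjusted p = 0.102, limma). How many of all genes meet the rule was not counted, so whether 18 is many cannot be said.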

How the results depend on the processing

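Over the alternatives SRO5 kept the direction of every difference. It ranged from 3.91 to 4.67 in as1-1 against WT, and its interaction from -5.40 to -4.18. It moved by more than the spread between replicates with quantile scaling and with the authors' table (4.60 in as1-1 and -0.87 in tfl2-1 against WT, under both) and with normexp background correction, which gave 3.91 and -0.48, and for the double mutant -0.75 against WT, -0.28 against tfl2-1 and -4.66 against as1-1, with an interaction of -4.18.

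SRO2 kept its 3 calls under every alternative. RCD1 kept its 3 calls too, except by probe A_84_P851998 (0.011 in tfl2-1 and -0.13 in the double mutant against WT, and 0.33 in the double mutant against as1-1). The RCD1 difference between the double mutant and tfl2-1 passed the threshold with quantile scaling (0.17), normexp (0.16) and the authors' table (0.17). These 3 settings are alike, since the normexp values were also quantile scaled and the authors' table gave nearly the quantile values. SRO1 lost calls. In tfl2-1 against WT it was 0.16 with no filter (adjusted p = 0.0706), 0.080 as the mean over probes and 0.15 to 0.17 on leaving out an array, and the probe A_84_P241235 reversed to -0.0014. In the double mutant it was 0.11 as the mean over probes, 0.043 by probe A_84_P241235 and 0.17 to 0.19 without 1 array against WT, and 0.14 to 0.22 without 1 array against as1-1. P5CDH reversed in 3 comparisons where its dim second probe entered: 1.58 as the mean over probes and 3.25 by that probe alone in as1-1 against WT, -0.55 and -1.32 in the double mutant against WT (neither passed, adjusted p = 0.203 and 0.122), and -2.13 and -4.57 against as1-1. That probe was not above background on WT replicate 2 or on any tfl2-1 or double mutant array, so these values carry no measured size.

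In as1-1 against WT 4353 genes passed, but 2024 with no filter, 2667 with the arrays of that slide alone and 2262 to 3641 on leaving out an array (2423 when WT replicate 1 was left out, 2262 for as1-1 replicate 1 and 2392 for as1-1 replicate 2). In the double mutant against tfl2-1 7145 passed, but 4359 with no filter and 4399 to 6959 on leaving out an array (4399 to 4713 for each of the 4 arrays of that slide). With no filter the median of all genes moved to -0.10 for as1-1 against WT, to 0.10 for tfl2-1 and to -0.14 for the double mutant. Replicate numbers did not pair the arrays (correlation of same-numbered deviations -0.063 to 0.048), and with a replicate block 3458 genes passed in as1-1 and 6189 in the double mutant against tfl2-1. Of the other values (single genes, interactions of the other members and the genes like SRO5), 2322 kept their direction and side of the threshold, 110 lost a call, 13 gained one, 7 moved and the 8 named above reversed. The cause of these shifts was not tested. SRO3 and SRO4 are limited by signal over background.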
